A study of Arabidopsis thaliana with 12 samples.

Results

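NdhN, CRR41, CRR21 and Cpn60beta4 are 4 nuclear genes of Arabidopsis thaliana that serve the NADH dehydrogenase-like (NDH) complex of the chloroplast thylakoid. They were followed on 12 arrays of ecotype Landsberg, 6 of flu mutant RNA and 6 of wild-type (WT) RNA, with every sample taken after 12 h in the dark. The flu mutant lacks FLU, a negative regulator of chlorophyll synthesis. The sources used here give no allele, tissue or plant age. A gene was taken as measured where the platform's table lists it alone for a feature, which held for 692 of the 3439 features, and each of the 4 genes had 1 such feature. The genes were grouped by what is known of their role, with the difference between flu and WT in these data already known, so that difference is given for them as a description. No p-value is given for it, and counts of the genes past a threshold are printed beside the share of all features and support nothing.

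The NDH complex takes electrons from reduced ferredoxin and passes them to plastoquinone. It is known for cyclic electron flow around photosystem I and for chlororespiration, the reduction of plastoquinone in darkness. Some of its subunits are encoded in the plastid genome and others in the nucleus, so the complex also needs nuclear factors that edit plastid transcripts, fold subunits and assemble the stromal arm. NdhN (AT5G58260) is a nuclear-encoded subunit of the stromal arm. CRR41 (AT1G51100) is a stromal factor in the assembly of that arm. Cpn60beta4 (AT1G26230) is a plastid chaperonin subunit needed to fold the plastid-encoded subunit NdhH, and CRR21 (AT5G55740) is a pentatricopeptide repeat (PPR) protein needed for editing of the plastid ndhD transcript.

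Values were deposited as linear intensities of unstated scale, with an upper limit of about 100 on every array. The median of an array was 0.443 to 0.491 in WT, somewhat above the 0.426 to 0.442 of flu, and no array was identical to another. None of the 4 genes was listed at 0, or below the floor given next, on any array. Log2 values were quantile normalised with a floor of 0.0236, the 1st percentile of all intensities above 0, and differences are flu minus WT on that scale unless stated. Within a genotype, arrays 1 and 2 resembled each other, as did 3 and 4, and 5 and 6 (Spearman correlation of 0.909 to 0.967 over all features) and are called couples. Neither couples nor separate plants are named in the labels, so errors and p-values cover the spread between these samples alone, which may be technical. Means are given with the SD over 3 couple means. No feature listed FLU alone, so the mutated gene did not check the labels, and none of 6 leaf, root and seed genes looked up had a feature of its own. In RNA from whole samples, fewer cells of a type and less RNA per cell cannot be told apart. The intensity of 1 gene's feature cannot be set against another's.

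The 2 genes of assembly and folding, CRR41 and Cpn60beta4, were higher on every flu array than on any WT array. CRR21 was higher in flu by its mean but overlapped WT, and NdhN overlapped over nearly its whole range and differed most between couples of arrays. No overlap with flu above WT was thus seen for 2 of the 4 genes, and for 12.5% of all 3439 features. In the limma fit over 12 arrays, 3 of the 4 (CRR41, CRR21 and Cpn60beta4) passed as higher in flu at a Benjamini-Hochberg adjusted p below 0.05, where 23.0% of all features passed as higher and 52.2% in either direction. With the replicate number as a block, 2 of the 4 passed (CRR41 and Cpn60beta4), against 25.5% of all features. The same 2 passed with couples averaged, against 14.5%, and with couples averaged and feature position centred, against 13.6%. Nothing is read from these counts, since the genes were chosen with this contrast known.

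**Figure D1:**
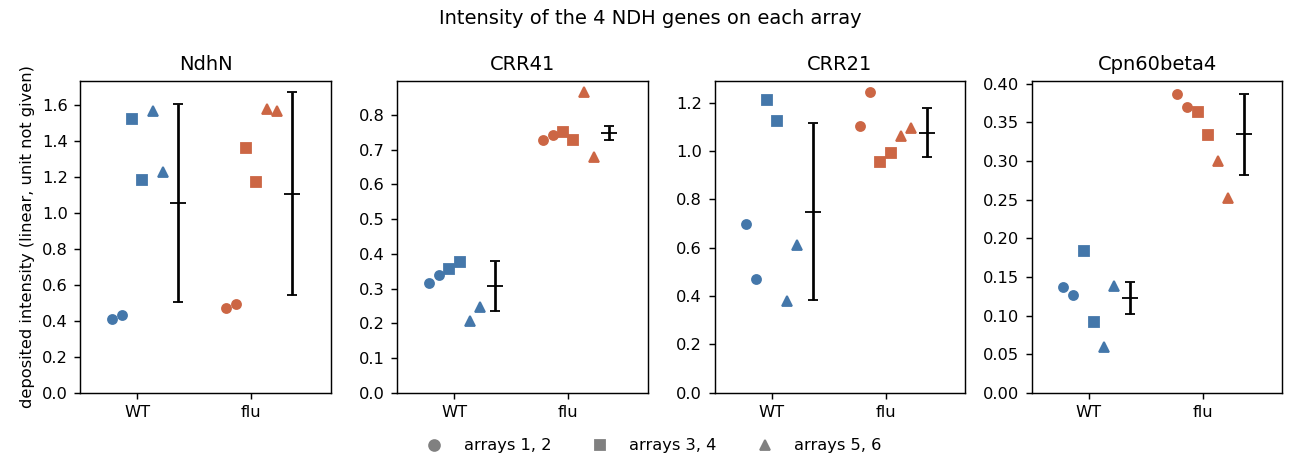
Deposited intensity (vertical axis, linear, unit not given) of NdhN, CRR41, CRR21 and Cpn60beta4 on the 6 WT and 6 flu arrays. Symbols give the couple of arrays, and the black bars the mean ± SD over 3 couple means. CRR41 and Cpn60beta4 do not overlap between genotypes, CRR21 overlaps through WT arrays 3 and 4, and NdhN is low on arrays 1 and 2 of both genotypes.

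CRR41, the assembly factor, had a lowest intensity of 0.208, a median of 0.329 and a highest of 0.376 on the 6 WT arrays. On the 6 flu arrays the lowest was 0.680, the median 0.735 and the highest 0.864. The genotypes did not overlap, and the lowest flu array stood at 1.81 times the highest WT array. The mean was 0.307 ± 0.0720 in WT and 0.749 ± 0.0205 in flu (SD, n = 3 couples), a fold of 2.44. The log2 difference was 1.49 with a standard error of 0.15 (0.20 with couples averaged), and 1.31 on the log2 values as deposited. CRR41 was higher in flu within all 6 same-numbered pairs of arrays, as was Cpn60beta4, and so were 19.7% of all features in deposited intensities. By couple, flu stood at 2.24, 2.02 and 3.40 times WT. The third couple had the largest fold, with low WT arrays (0.227, against 0.329 and 0.366), while the 3 flu couples lay between 0.735 and 0.772. Among flu arrays CRR41 was one of the steadier features, with an SD of 0.13 on the log2 scale, and 15.4% of all features had a lower one.

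Cpn60beta4, the chaperonin subunit, had a lowest intensity of 0.0597, a median of 0.132 and a highest of 0.184 in WT. In flu the lowest was 0.252, the median 0.349 and the highest 0.387. Here too the genotypes did not overlap, with the lowest flu array at 1.37 times the highest WT array. The mean was 0.123 ± 0.0207 in WT and 0.335 ± 0.0526 in flu (SD, n = 3 couples), a fold of 2.72. Between couple means the fold was 2.87, 2.53 and 2.78, but it was less even between single arrays. Within same-numbered pairs, the log2 ratio of flu to WT in deposited intensities ran from 0.862 to 2.33. In the third couple, WT arrays 5 and 6 read 0.0597 and 0.139. The log2 difference was 2.06 with a standard error of 0.31 (0.23 with couples averaged), but 1.51 as deposited. Cpn60beta4 was thus the gene of the 4 whose size of difference depended most on normalisation, which lowered its WT values further. WT array 4 went from -3.45 on the deposited log2 scale to -4.36, and WT array 5 from -4.07 to -4.71. Arrays of 1 couple also differed most in this gene, by up to 1.59 on the log2 scale in WT, against at most 0.24 in flu.

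CRR21, the PPR editing factor, had a lowest intensity of 0.379, a median of 0.655 and a highest of 1.21 in WT. In flu the lowest was 0.954, the median 1.08 and the highest 1.25. The overlap came from 1 couple: WT arrays 3 and 4 read 1.21 and 1.13, above most flu arrays, while the other 4 WT arrays read at most 0.699, below every flu array. The mean was 0.749 ± 0.366 in WT and 1.08 ± 0.101 in flu (SD, n = 3 couples). Flu stood at 2.01 times WT in the first couple, 0.832 times in the second and 2.18 times in the third. The direction of the difference therefore turned in the second couple, and flu was higher in 4 of 6 same-numbered pairs, before and after normalisation. The log2 difference over 12 arrays was 0.74 with a standard error of 0.26, or 0.34 with couples averaged. The spread of CRR21 lay on the WT side, with an SD on the log2 scale of 0.66 in WT and 0.14 in flu. Over all features the median SD was 0.35 in WT and 0.24 in flu, so WT arrays were also the more variable ones in general.

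NdhN, the subunit of the stromal arm, had a lowest intensity of 0.411, a median of 1.20 and a highest of 1.57 in WT. In flu the lowest was 0.469, the median 1.27 and the highest 1.58. Arrays 1 and 2 of both genotypes were low, and the other arrays of both lay between 1.17 and 1.58. The mean was 1.06 ± 0.550 in WT and 1.11 ± 0.564 in flu (SD, n = 3 couples), and flu stood at 1.14, 0.937 and 1.13 times WT in the 3 couples. The log2 difference of 0.17 had a standard error of 0.46 (0.66 with couples averaged). That error is of a fit without pairing and takes in the spread between couples, so by itself it does not limit the range to small differences. The couples of 1 genotype spanned 1.67 on the log2 scale in WT and 1.74 in flu, with the first couple low in both. Within same-numbered pairs, the log2 ratio of flu to WT in deposited intensities ran from -0.159 to 0.354. Within couples, arrays differed by at most 0.39.

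**Figure D2:**
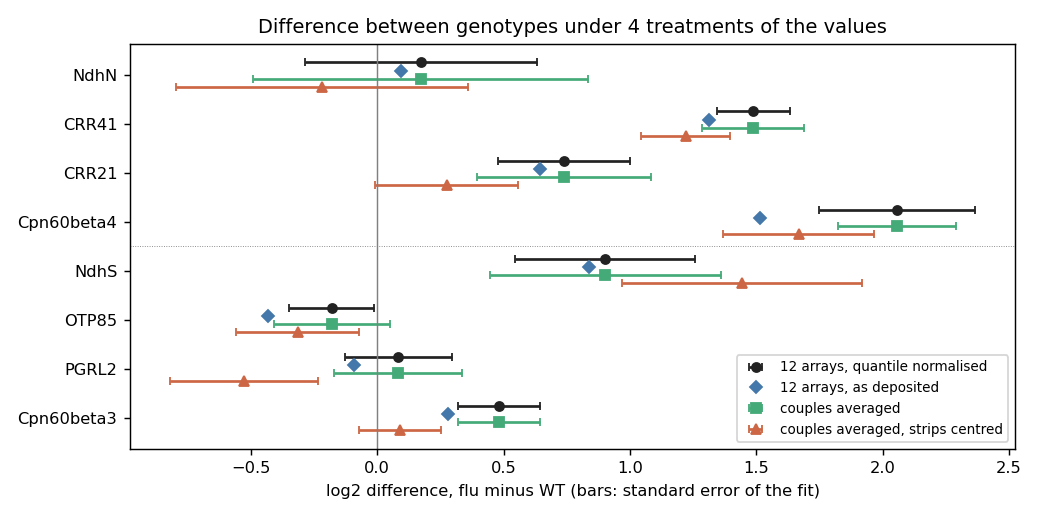
Log2 difference of flu minus WT (horizontal axis) for the 4 NDH genes, above the dotted line, and 4 related genes, below it, under 4 treatments of the same values. Bars are the standard error of the limma fit, and values as deposited are drawn without one. CRR41 and Cpn60beta4 stay above 1.2 in all 4, and NdhN and PGRL2 lie on both sides of 0.

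Differences between flu and WT followed in part the position of a feature in the array's numbering. Features were placed in 48 strips of 6 numbers that recur at a fixed interval, a grouping found in these data. Strips explained 24.7% of the variance of the log2 difference, and strip means ran from -0.67 to 0.61. The 4 genes lay in 4 different strips, all with a positive mean. For CRR41 the other features of its strip had a mean log2 difference of 0.25, for Cpn60beta4 of 0.37, for NdhN of 0.40 and for CRR21 of 0.46. CRR41 and Cpn60beta4 stood near the top of their strips. Of the 77 features in the strip of CRR41, 1 had a larger difference, and of the 69 in that of Cpn60beta4, 3 had. CRR21 lay nearer the middle, with 22 of 76 features above it, and NdhN below the middle, with 44 of 73 above it. With couples averaged and strips centred, the log2 differences were 1.22 for CRR41, 1.67 for Cpn60beta4, 0.28 for CRR21 and -0.22 for NdhN. The difference of CRR21 was less than 1 standard error (0.28) from 0 there, and that of NdhN turned its sign.

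**Figure D3:**
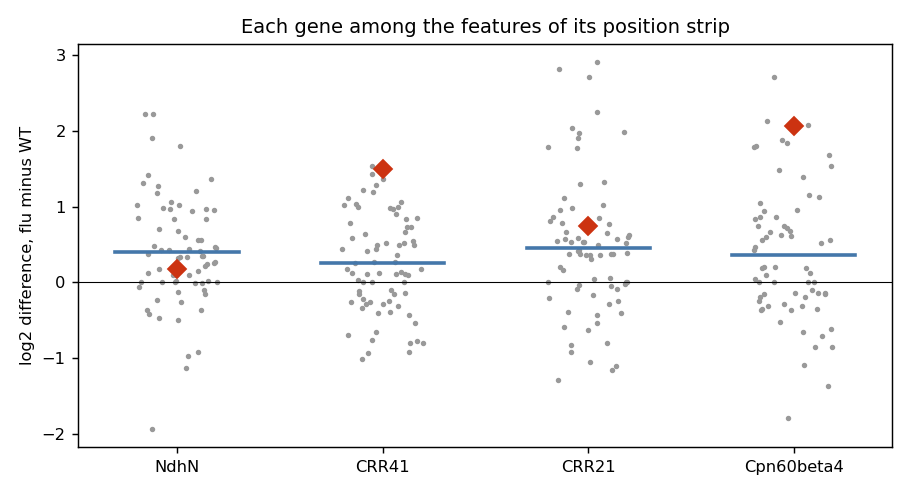
Log2 difference of flu minus WT (vertical axis) for each of the 4 genes (diamonds) and for the other features of its strip of feature numbers (points, spread sideways for clarity), with the mean of those other features as a line. CRR41 has 1 feature above it and Cpn60beta4 has 3, while NdhN lies below the mean of its strip. The genes were chosen with this difference known.

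The couples gave a comparison other than that between genotypes. The first couple was compared with the other couples over all features by limma, on couple means and with a genotype term. NdhN was lower in the first couple by 1.60 on the log2 scale (standard error 0.14, limma adjusted p = 0.041). Its low first couple was known from an earlier analysis of these data, so this p is not independent evidence. On the deposited scale NdhN read 0.422 in the first WT couple against 1.35 and 1.40, and 0.480 in the first flu couple against 1.27 and 1.57. All 4 arrays of the first couple lay below all 8 others, in both genotypes. The share of all features with such a separation is not given here, so nothing is read from it. Of all features, 0.582% (20) passed as lower in the first couple and 0 as higher, with 580 at an unadjusted p below 0.05 in either direction. The other features in the strip of NdhN had a mean of -0.03 in this contrast, and 2 of them were lower than NdhN, so the low first couple was not shared by the strip as a whole.

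The other 3 genes did not pass in this comparison. Cpn60beta4 stood at 0.44 (standard error 0.17, limma adjusted p = 0.30), CRR41 at 0.13 (standard error 0.22, adjusted p = 0.80) and CRR21 at -0.09 (standard error 0.40, adjusted p = 0.94). Against all features, 1.77% had a lower value than NdhN, 33.4% than CRR21, 57.9% than CRR41 and 86.5% than Cpn60beta4. The deviation of the first couple was thus large for NdhN, and whether it differed from that of the other genes was not tested.

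**Figure D4:**
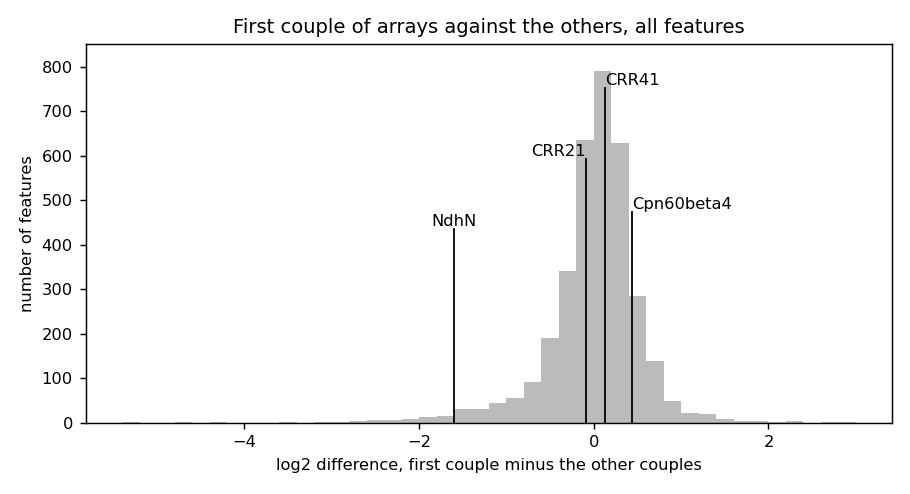
Number of features (vertical axis) by log2 difference of the first couple of arrays minus the other couples (horizontal axis, bins of 0.2), with the 4 genes marked by lines whose height has no meaning. NdhN lies in the lower tail at -1.60, and CRR41, CRR21 and Cpn60beta4 lie between -0.09 and 0.44.

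Further genes of the same pathway were listed from annotation, with 39 genes of NDH subunits, assembly factors and RNA factors and 20 of linked systems: photosystem I linkers, the PGR5 route of cyclic flow, plastid chaperonins, and ferredoxin and plastoquinone enzymes. Of the 39, 6 had a feature of their own, the 4 genes above among them. Of all 59, 4 were measured outside the 4 genes, namely NdhS, OTP85, PGRL2 and Cpn60beta3, and 2 features that list several genes held a further listed gene and were not named. Over 12 arrays 1 of these 4 rose in flu (Cpn60beta3) and 0 fell, at a limma adjusted p below 0.05, where 49.7% of features with 1 gene passed in either direction. With couples averaged none passed, against 34.7% of all features, nor with strips centred too, against 27.8%. At an unadjusted p below 0.05 in limma, 2 of the 4 passed over 12 arrays (NdhS and Cpn60beta3), 1 with couples averaged (Cpn60beta3) and 1 with strips centred too (NdhS). Of all features 57.1%, 45.0% and 42.1% passed at that unadjusted threshold, so none of these counts exceeded the background share. The median log2 difference of the 4 was 0.28, and that of all features was -0.04.

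NdhS (AT4G23890), the subunit at which ferredoxin docks, read 2.11, 2.45, 7.19, 7.34, 5.77 and 2.15 on WT arrays 1 to 6. On flu arrays 1 to 6 it read 7.15, 7.53, 7.02, 7.53, 6.21 and 6.21. All flu arrays were thus at the level of the higher WT arrays, and 3 WT arrays were at about a level of 2. The log2 difference was 0.90, and its adjusted p in limma was 0.053 over 12 arrays, 0.045 with the replicate block and 0.19 with couples averaged. NdhS lay in a strip with a negative mean (-0.56 over its other features), and with strips centred its difference was 1.44 (adjusted p = 0.061). In the second couple flu read 7.28 and WT 7.26, while in the first flu stood at 3.22 times WT. The second couple was the highest of WT in CRR21 too, while the other 2 couples stood in the opposite order (0.585 and 0.494 in CRR21, 2.28 and 3.96 in NdhS). That order rests on WT array 5 of NdhS at 5.77, since array 6 of the same couple read 2.15. The second WT couple stood above the other WT couples by 1.42 on the log2 scale for NdhS and by 1.10 for CRR21, values with 97.7% and 95.1% of all features below them.

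Cpn60beta3 (AT5G56500), a paralogue of Cpn60beta4 among the plastid chaperonin beta subunits, stood at 0.315 ± 0.0657 in WT and 0.377 ± 0.0228 in flu (SD, n = 3 couples). Its arrays ran from 0.223 to 0.398 in WT and from 0.310 to 0.478 in flu, and the genotypes overlapped. The log2 difference was 0.48 (limma adjusted p = 0.027 over 12 arrays, 0.072 with the replicate block and 0.070 with couples averaged), against 2.06 for Cpn60beta4. With strips centred it stood at 0.09 (adjusted p = 0.71), while Cpn60beta4 stood at 1.67. Its adjusted p was 0.053 to 0.059 when WT replicate 1 or 6 was left out, or flu replicate 3 or 6. The difference between the paralogues was not tested, because Cpn60beta4 was chosen with its contrast known.

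OTP85 (AT2G02980), a PPR editing factor of the plastid ndhD transcript like CRR21, was lower in flu in 6 of 6 same-numbered pairs of deposited intensities, as were 36.4% of all features, and in 4 of 6 pairs after normalisation. Its arrays ran from 0.230 to 0.451 in WT and from 0.201 to 0.308 in flu. The log2 difference of -0.18 did not pass over 12 arrays (limma adjusted p = 0.40), but on the log2 values as deposited it was -0.43 (adjusted p = 0.033). The median log2 difference over all features was -0.20 as deposited and -0.04 after normalisation, and OTP85 moved between the same scales by a larger amount. PGRL2 (AT5G59400), a homologue of the PGRL1 proteins of the PGR5 route, stood at 0.416 ± 0.0981 in WT and 0.383 ± 0.0525 in flu (SD, n = 3 couples). Its log2 difference was 0.08 (limma adjusted p = 0.78) and changed sign with the processing. The log2 differences of the ndhD editing factors were thus 0.74 for CRR21 and -0.18 for OTP85 over 12 arrays, and 0.28 and -0.32 with couples averaged and strips centred.

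**Figure D5:**
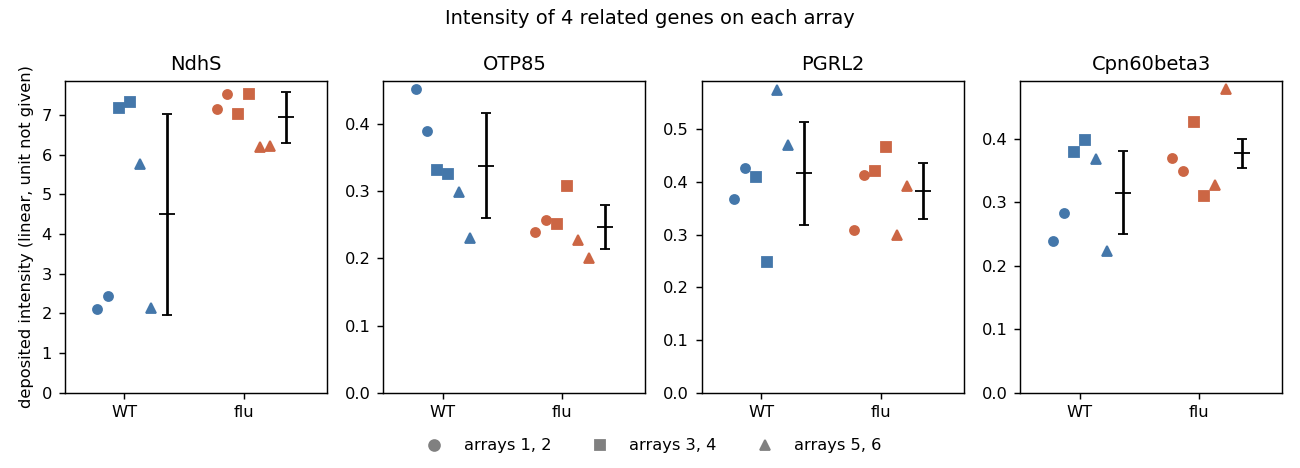
Deposited intensity (vertical axis, linear, unit not given) of NdhS, OTP85, PGRL2 and Cpn60beta3 on the 6 WT and 6 flu arrays, drawn as for the 4 NDH genes. NdhS has 3 WT arrays between 2.11 and 2.45, and every other array of it lies between 5.77 and 7.53.

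Likeness of pattern was measured as the Pearson correlation of deviations from the genotype mean on the normalised log2 scale over 12 arrays, among 624 features with 1 gene and no value at 0. It leaves out the difference between genotypes, and its points share couples of arrays, so it is given as a description. For each gene the 3 most alike are named. The pattern of NdhN was followed by AT1G76240 (r = 0.98), AT2G29870 (0.94) and AT5G63290 (0.93), whose first couples were lower by 2.13, 0.96 and 1.67 on the log2 scale. AT1G76240 read 0.102 in the first WT couple against 0.455 and 0.375, and 0.0589 in the first flu couple against 0.263 and 0.350. None of these 3 lay in the strip of NdhN.

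CRR41 was most like AT1G51080 (r = 0.90), AT5G19210 (0.89) and AT4G31930 (0.86). The likeness came from the WT arrays, where arrays 5 and 6 were low for all 4 genes. Over the flu arrays alone it was -0.14, 0.43 and 0.39. AT1G51080 is also a close neighbour of CRR41 in the genome, with 2 annotated genes between them, 1 of them protein coding, in the RefSeq table of assembly TAIR10.1. It rose in flu by 1.88 on the log2 scale (adjusted p in limma of 8.5e-05 over 12 arrays, 0.015 with couples averaged and 0.026 with centred strips too). Its feature and that of CRR41 lay in different strips. AT1G51080 read 0.459, 0.543 and 0.226 in the WT couples and 1.36, 1.34 and 1.19 in the flu couples, so every flu couple lay above every WT couple. AT4G31930 also rose in flu, by 3.10 (limma adjusted p of 0.0016, 0.048 and 0.018 in the same fits). AT5G19210 went the other way, at -1.19 (limma adjusted p of 0.0059, 0.063 and 0.027). Over 12 arrays 49.7% of features with 1 gene passed in either direction.

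CRR21 was most like AT1G76050 (r = 0.94), AT5G53080 (0.90) and THIC (0.90), an enzyme of thiamine synthesis. In all 3 the second WT couple was the highest of WT, for AT1G76050 at 0.476 against 0.227 and 0.202. Cpn60beta4 was most like AT3G27110 (r = 0.79), AT5G46560 (0.75) and SBPASE (0.74), sedoheptulose bisphosphatase of the Calvin-Benson cycle, at lower correlations than the best of the other 3 genes. None of the 12 genes named for likeness shared a strip with its NDH gene. Among the 4 NDH genes themselves, the highest correlation was that of CRR41 with CRR21 (0.63), and the lowest that of NdhN with Cpn60beta4 (-0.41). The 3 correlations among CRR41, CRR21 and Cpn60beta4 were 0.63, 0.42 and 0.30, and those of NdhN with them were -0.28, 0.07 and -0.41. Of the 624 features, 92.6% correlated with CRR41 less than CRR21 did and 78.7% less than Cpn60beta4 did. With CRR21, 91.5% correlated less than CRR41 did and 76.4% less than Cpn60beta4 did. With Cpn60beta4, 89.1% correlated less than CRR41 did and 77.4% less than CRR21 did. NdhS correlated with CRR21 at 0.395, above 81.6% of these features.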

How the data were processed

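Transcript levels were measured on 12 arrays, 6 of the flu mutant and 6 of WT, grouped by their titles. The deposited table holds 1 linear intensity per feature and array. How the authors hybridised, scanned and scaled the arrays is not given in the sources used here. Intensities have no counts behind them, so the number of arrays limits the precision.

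Features were named through the platform table and, for 690 of 692 features with 1 gene, the RefSeq table of assembly TAIR10.1. Intensities were given a floor of 0.0236 (the 1st percentile of intensities above 0), log2 transformed and quantile normalised. Two-sided tests used lmFit and eBayes of limma 3.58.1 (R 4.3.3) over all 3439 features, with Benjamini-Hochberg adjusted p below 0.05, and were tested on simulated data. Alternatives were values as deposited, median centring, an offset of 0.1, a filter on dim features, a replicate block, couple means, centred strips, and arrays or couples left out. Strips were centred per array, on their mean deviation from the feature means.

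Taken as deviations from the genotype mean, WT and flu arrays of the same number correlated at 0.368 to 0.539, and each of the 12 was closest to its own number, so the numbers were taken to pair the arrays. This pairing comes from the data, not from the labels.

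The 4 genes, the 7 gene lists, couples, strips and tests were chosen with earlier results of these data known. The lists were written from annotation and include OTP80 and OTP81, which are known to edit plastid transcripts other than those of NDH. Neither had a feature of its own. Named were the 4 genes, list genes measured outside them, and for each of the 4 the 3 features most alike in pattern. Naming the list genes that did not pass goes beyond the rule written for names, and was decided after their values were seen. Sequences were not used here.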

Additional observations from a re-analysis of the deposited data

Results flagged for a closer look

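For the 4 NDH genes and the 4 related genes, 16 groups of 6 arrays were examined for a single array far from the others, and 1 stood out. Chance flags about 1 in 20 groups of independent values, a rate that need not hold for arrays in couples. The low arrays 1 and 2 of NdhN, which lie close together, were not flagged. CRR41 read -0.13 on the normalised log2 scale in flu array 5, against -0.51 to -0.38 on the other 5 flu arrays. As deposited, it read 0.864 there, against 0.680 to 0.750. Without flu array 5 the log2 difference of CRR41 was 1.44, against 1.49 with it.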

How the results depend on the processing

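Over all 3439 features, the count of 1796 past the threshold was 1193 with couples averaged and 956 when strips were also centred. It was 1666 to 1792 with 1 array left out. Among features above the median intensity it was 1090, out of a smaller set, so that count is not a loss of calls on the same features. With the offset of 0.1 the log2 difference of CRR41 was 1.21 and that of Cpn60beta4 1.24, and CRR41 stood at 1.22 with strips centred. With 1 array left out, these 2 ran from 1.38 to 1.54 and from 1.83 to 2.20, and CRR21 from 0.56 to 0.90. NdhN turned to -0.22 with strips centred and ran from -0.051 to 0.386 with 1 array left out, turning without WT array 1 or 2. Cpn60beta4 was not among the features above the median intensity. In the replicate block the 12-array log2 differences are the same by construction, at 1.49 for CRR41 and 0.74 for CRR21, and the block moved the calls of CRR21, NdhS and Cpn60beta3. CRR21 was also not past the threshold as deposited, in 7 of 12 fits with 1 array left out, and without the first or the third couple.

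Of the 4 related genes, 1 passed over 12 arrays (Cpn60beta3) and 1 as deposited (OTP85, lower). With median centring or the replicate block, 1 passed (NdhS). The filter on dim features kept only NdhS of the 4, and it passed there. With the offset 2 passed, as did 2 without the second couple. None passed with couples averaged, with or without centred strips, or without the first or the third couple. With 1 array left out, 0 to 2 passed. OTP85 turned to 0.039 (limma adjusted p = 0.87) without the first couple. PGRL2 turned to -0.093 as deposited, -0.53 with strips centred, -0.24 without the second couple and -0.097 without WT array 4, with a range of -0.097 to 0.196 when 1 array was left out. The comparison of the first couple with the others kept direction and side of the threshold for all 4 NDH genes under its 3 alternatives. Its counts over all features moved, from 20 lower and 0 higher in the first couple to 34 and 3 as deposited. They were 75 and 8 with median centring, and 38 and 2 with the offset. The cause of these changes was not tested. Background readings of the arrays were not used here.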
